A study of Mus musculus with 8 samples.

Results

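The PGC-1 coactivators and the estrogen-related receptors (ERRs) that they serve were followed in mouse primary hepatocytes treated with glucagon, with the FXR agonist GW4064, or with both. The set holds 6 genes, chosen by name: Ppargc1a, Ppargc1b, Pprc1, Esrra, Esrrg and Lpin1. A member was represented by a probe set to which the platform annotation gives that gene symbol alone, and each of the 6 had 1 such probe set. They are 6 of the 22180 genes so represented on the array, and all 6 were among the 13845 genes tested, those whose signal was above the 40th percentile of all probe sets on 2 or more arrays. Ppargc1a passed that level on 6 arrays, the 4 with glucagon and the 2 without glucagon of experiment 2, so it did not enter the test through its glucagon arrays alone. Ppargc1b also passed on 6 arrays, and the other members passed on all 8.

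Cells came from male C57Bl6J mice, and 4 groups were made, each with 2 arrays: glucagon+GW4064, 100 nM glucagon, 2 µM GW4064, and DMSO, the solvent. Glucagon and GW4064 were at the same doses when combined, and every treatment lasted 6 h. All groups, DMSO included, were kept in low-glucose DMEM with albumin, glutamine and 100 nM dexamethasone, a synthetic glucocorticoid. Each of 2 experiments used hepatocytes pooled from 3 mice, so n = 2 per group means 2 cell pools, and with 8 arrays in all precision is limited. The pool cannot be told apart from anything else that differed between the experiments. A difference between pools below therefore means one between the experiments. GW4064 is a synthetic agonist of FXR, a nuclear receptor that bile acids activate and Nr1h4 encodes, and glucagon is the fasting hormone that acts on hepatocytes through cyclic AMP.

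One array stood apart from the rest. On the GW4064 array of experiment 2, 1400 probe sets for olfactory and vomeronasal receptors, genes not known to act in hepatocytes, had a median log2 signal of 3.25, against 2.95 to 2.98 on the other 7 arrays. It correlated with them at 0.975 to 0.985 over the tested genes, where other pairs reached 0.997. Low signals such as those of Ppargc1b and Esrrg lie nearest to this level. Higher signals differed on this array too: Esrra read 4.42 on it and 4.94 to 5.30 on the others. For some member differences that include that array, the value without it is given too. All 8 hepatocyte markers listed were above the filter level on every array.

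PGC-1alpha, the product of Ppargc1a, is a transcriptional coactivator: it binds no DNA itself, docks on nuclear receptors and other factors, and recruits histone acetyltransferases and Mediator. In liver it is known for its induction by fasting through cyclic AMP, protein kinase A and CREB, and for its action on gluconeogenesis, fatty acid oxidation and mitochondrial genes. Ppargc1b encodes its close relative PGC-1beta, and Pprc1 encodes the more distant PRC, a coactivator linked to growth signals. ERRalpha (Esrra) and ERRgamma (Esrrg) are orphan nuclear receptors that use PGC-1 proteins in place of a ligand and drive genes of oxidative metabolism. Lipin-1 (Lpin1) is a phosphatidate phosphatase of triglyceride synthesis that also works in the nucleus with PGC-1alpha and PPARalpha.

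Promoter windows of the RefSeq tables (build GRCm38.p6) were available for 5 of the 6 members, 8 windows in all, each from 250 bases before to 50 bases after a transcript start. The 3 windows below belong to the members with the largest differences, of either sign, between the glucagon groups and those without glucagon, and they are printed 5′ to 3′ on the gene's strand. That of Ppargc1a lies at chr5:51567676-51567975 on the minus strand, that of Lpin1 at chr12:16610917-16611216 on the minus strand, and that of Pprc1 at chr19:46056289-46056588 on the plus strand. Capitals mark the only match among all 8 windows to the motifs searched.
Ppargc1a: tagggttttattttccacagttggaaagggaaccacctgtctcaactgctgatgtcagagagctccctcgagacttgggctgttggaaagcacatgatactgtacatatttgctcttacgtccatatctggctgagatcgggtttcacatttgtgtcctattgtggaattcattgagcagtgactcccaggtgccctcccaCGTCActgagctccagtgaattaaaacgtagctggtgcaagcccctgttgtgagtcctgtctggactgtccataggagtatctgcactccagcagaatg
Lpin1: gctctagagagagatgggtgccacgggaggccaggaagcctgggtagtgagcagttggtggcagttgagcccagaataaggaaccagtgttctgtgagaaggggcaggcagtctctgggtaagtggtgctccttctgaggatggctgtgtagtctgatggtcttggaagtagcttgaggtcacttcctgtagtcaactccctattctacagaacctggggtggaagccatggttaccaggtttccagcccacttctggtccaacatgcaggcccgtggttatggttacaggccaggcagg
Pprc1: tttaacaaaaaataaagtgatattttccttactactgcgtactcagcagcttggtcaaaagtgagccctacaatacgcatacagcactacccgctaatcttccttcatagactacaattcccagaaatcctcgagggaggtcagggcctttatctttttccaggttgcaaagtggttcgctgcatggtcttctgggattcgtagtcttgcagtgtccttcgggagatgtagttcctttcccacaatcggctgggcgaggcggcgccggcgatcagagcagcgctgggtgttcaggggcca
The capitals, CGTCA, are TGACG, the core of the cyclic AMP response element, read on the opposite strand, and they cover bases -49 to -45 from the Ppargc1a start. This core was found on either strand in 20.812% of the 32851 promoter windows of the same length, so a match is common. The full element TGACGTCA occurred in 1.79% of windows, the extended ERR element TCAAGGTCA in 0.423% and the ERR core AAGGTCA in 4.718%, and none of these was found in a window of the members. Each longer element contains its core. The matches describe letters in these windows only.

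Ppargc1a was the member that glucagon raised. Its log2 signal was 7.59 in experiment 2 and 6.91 in experiment 1 with glucagon+GW4064, 7.03 and 6.54 with glucagon, 3.90 and 3.08 with GW4064, and 4.11 and 3.13 with DMSO, experiment 2 first throughout. All 4 arrays with glucagon stood far above all 4 without it; 6.07% of all genes tested had all 4 glucagon arrays above the others by any amount. The group means, highest first, were 7.25 ± 0.48 with glucagon+GW4064, 6.78 ± 0.35 with glucagon, 3.62 ± 0.69 with DMSO and 3.49 ± 0.58 with GW4064 (SD, n = 2 each). These SDs hold the difference between the cell pools; neighbours in this order are compared within pools further on. On its own arrays the gene stood at the 82.3 to 88.8 percentile of all probe sets with glucagon. Without glucagon it stood at the 57.9 percentile (GW4064) and the 62.1 percentile (DMSO) in experiment 2, and at 37.8 (GW4064) and 39.7 (DMSO) in experiment 1, just below the filter level. In bulk cultures, fewer cells of a type and less RNA per cell cannot be told apart.

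**Figure D1:**
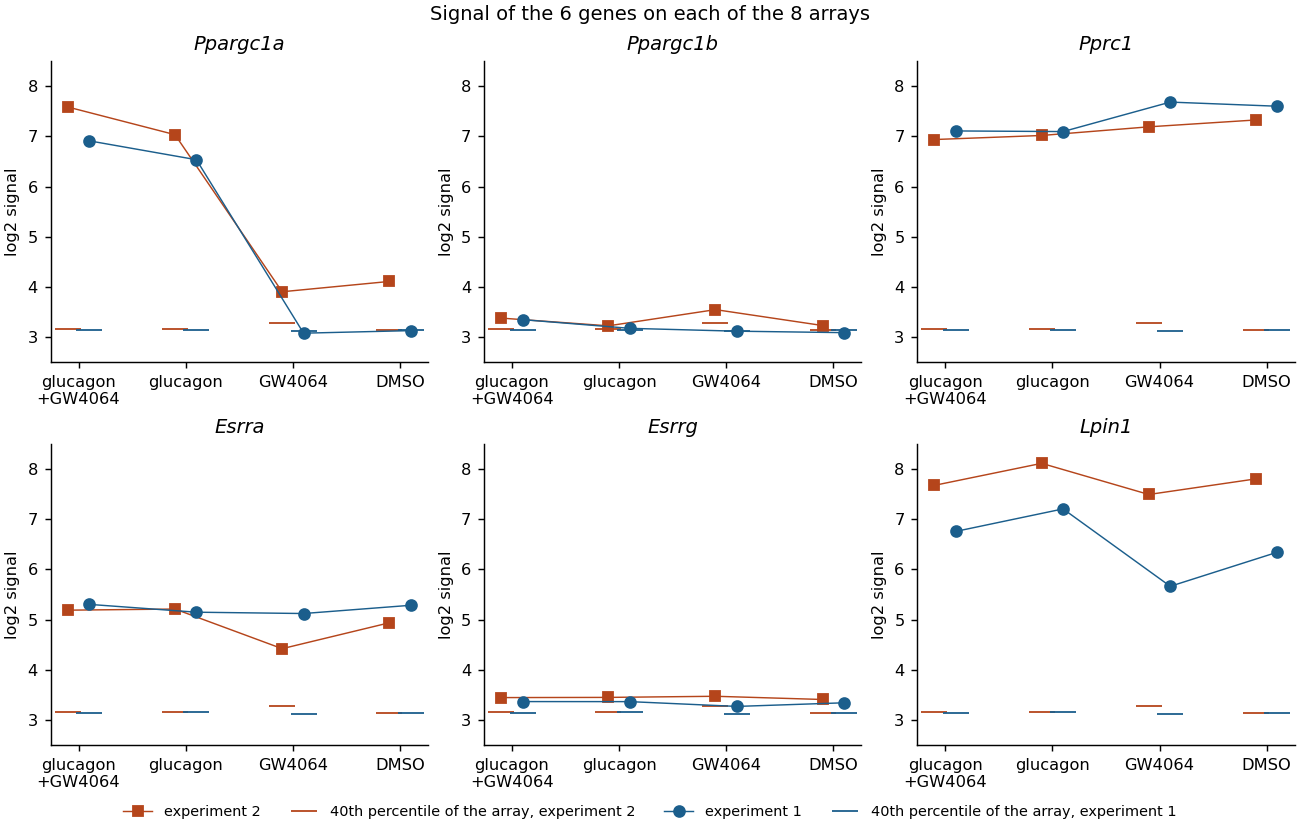
Log2 signal of the 6 genes (vertical axis, 1 panel per gene) on each of the 8 arrays by treatment, squares for experiment 2 and circles for experiment 1; lines join the arrays of an experiment and short dashes mark the 40th percentile of each array. Ppargc1a lies between 6.54 and 7.59 with glucagon and between 3.08 and 4.11 without it, Lpin1 is higher in experiment 2 at every treatment, and Ppargc1b and Esrrg stay between 3.09 and 3.55, near the percentile mark.

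The 2 glucagon groups together exceeded the 2 groups without glucagon by 3.46 on the log2 scale for Ppargc1a (SE 0.30, 95% interval 2.76 to 4.16). This rise passed limma's moderated test (adjusted p = 0.00589). With the 2 signals below the filter level raised to that level, it was at least 10.9-fold; this limit was added after the data were seen and has no test. With the experiment as a block, which removes the difference between the cell pools, limma gave the same size and an adjusted p of 7.04e-05. Without the GW4064 array of experiment 2 the difference was 3.67 (adjusted p = 0.00769), and with the block as well it was 3.49 (adjusted p = 0.000115). Of the 6 members, 1 rose and 0 fell in this comparison, beside 0.816% of all genes tested that rose and 0.506% that fell. With the block the same 1 member was called, and 2.67% of all genes rose and 3.08% fell.

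The glucagon array was the higher in all 4 matched pairs. With GW4064 present, its Ppargc1a signal was 12.8-fold that of its match in experiment 2 and at least 13.8-fold in experiment 1. Without GW4064 the fold was 7.59 in experiment 2 and at least 10.5 in experiment 1. The experiment 1 folds are limits because both arrays without glucagon lay below the filter level, so the sizes of the 2 experiments were not ranked.

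Tested one contrast at a time, glucagon+GW4064 against GW4064 gave a log2 difference of 3.76 for Ppargc1a (SE 0.42, limma adjusted p = 0.0358), where 0.166% of all genes were called. Glucagon+GW4064 against DMSO gave 3.63 (SE 0.42, adjusted p = 0.0494, with 0.123% of all genes called). Glucagon against DMSO gave 3.16 (SE 0.42), which missed the threshold without the block (adjusted p = 0.062, 0.116% of genes called) and passed with it (adjusted p = 0.000774, 0.925% of genes called). The first of these contrasts had an adjusted p of 0.000649 and the second of 0.000499 with the block, where 1.06% and 0.737% of all genes were called. The contrasts share arrays, so they are not independent of each other. Without the block, the call for glucagon+GW4064 against DMSO was lost with no filter on low values (adjusted p = 0.056), with only the groups compared (0.076) and in 6 of 8 fits that left out 1 array. The call for glucagon+GW4064 against GW4064 was lost with only the groups compared (0.142) and in 5 of 8 such fits, among them that without the GW4064 array of experiment 2 (adjusted p = 0.0526).

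For Ppargc1a, no GW4064 difference passed the test. GW4064 against DMSO differed by -0.13 (SE 0.42, 95% interval -1.12 to 0.87; -0.46 to 0.21 with the block), with the GW4064 array below its DMSO match in both experiments. On top of glucagon, the combined treatment stood above glucagon by 0.55 in experiment 2 and 0.38 in experiment 1, a mean difference of 0.46 (SE 0.42, limma adjusted p = 0.99994). With the block its 95% interval was 0.13 to 0.80 (unadjusted p = 0.0142, adjusted p = 0.99994). The difference between the 2 glucagon effects, with and without GW4064, was 0.59 (SE 0.60, 95% interval -0.81 to 2.00, adjusted p = 1). With the block that interval was 0.12 to 1.07 (unadjusted p = 0.0220, adjusted p = 0.99958). The pooled GW4064 comparison, both single contrasts of GW4064 and this interaction called 0 of 13845 genes (0%), with or without the block, so 0 of the 6 members were called in any of them. At an unadjusted limma p below 0.05 without the block, there were 216 genes in the pooled GW4064 comparison, 373 for GW4064 against DMSO, 90 for glucagon+GW4064 against glucagon and 149 in the interaction.

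Ppargc1b had a low signal with no treatment difference past the test. It read 3.38 and 3.35 with glucagon+GW4064, 3.23 and 3.18 with glucagon, 3.55 and 3.12 with GW4064, and 3.23 and 3.09 with DMSO, in experiments 2 and 1. The groups overlapped, and the 8 values, 3.09 to 3.55, lay close to the 40th percentile of the arrays (3.13 to 3.27). The glucagon groups differed from those without by 0.04 (SE 0.11, 95% interval -0.24 to 0.31). The GW4064 arrays were above their match in 4 of 4 pairs, as for 5.66% of all genes, with a mean difference of 0.17 (SE 0.11, limma adjusted p = 0.99995). The highest value, 3.55, was on the GW4064 array of experiment 2, whose 40th percentile was also the highest. Without that array the GW4064 difference was 0.06, or 0.08 with the block, and the glucagon difference was 0.14, or 0.12 with the block.

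Pprc1, the third coactivator gene, read lower with glucagon in every pair, though not past the test. Its log2 signal was 6.94 and 7.11 with glucagon+GW4064, 7.02 and 7.10 with glucagon, 7.19 and 7.68 with GW4064, and 7.33 and 7.60 with DMSO, in experiments 2 and 1. All 4 glucagon arrays lay below all 4 arrays without glucagon, as they did for 6.88% of all genes tested. The pooled difference was -0.41 (SE 0.14, 95% interval -0.73 to -0.09), 0.752-fold, in the opposite direction to Ppargc1a. It missed the threshold in limma without the block (adjusted p = 0.223) and with it (adjusted p = 0.0562). With the block and 1 GW4064 array left out it passed, at -0.49 and adjusted p = 0.0181 without that of experiment 2, and at -0.33 and adjusted p = 0.0401 without that of experiment 1. GW4064 made a pooled difference of -0.03 (SE 0.14, 95% interval -0.35 to 0.29), which was 0.09 without its array of experiment 2.

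Between the receptors, neither was called in any treatment comparison. Esrra, for ERRalpha, read 5.19 and 5.30 with glucagon+GW4064, 5.21 and 5.15 with glucagon, 4.42 and 5.12 with GW4064, and 4.94 and 5.29 with DMSO, in experiments 2 and 1. The 4 glucagon arrays lay together between 5.15 and 5.30 and overlapped the others, of which the GW4064 array of experiment 2 was lowest. The glucagon difference was 0.27 (SE 0.17, 95% interval -0.12 to 0.67, limma adjusted p = 0.519, 0.290 with the block), made up of 0.52 in experiment 2 and 0.02 in experiment 1. Without the GW4064 array of experiment 2 it was 0.10 (adjusted p = 0.698), or 0.13 with the block (adjusted p = 0.469). With the block and without the GW4064 array of experiment 1, so that the experiment 2 array alone stood for GW4064, the difference was 0.41 with an adjusted p of 0.0398. In that fit glucagon+GW4064 against GW4064 also passed, at 0.76 and adjusted p = 0.030, beside 0.47 and adjusted p = 0.536 on all arrays.

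Esrrg, for ERRgamma, was the flattest of the 6. Its log2 signal was 3.45 and 3.37 with glucagon+GW4064, 3.45 and 3.37 with glucagon, 3.47 and 3.27 with GW4064, and 3.41 and 3.34 with DMSO, in experiments 2 and 1. Its whole range was 3.27 to 3.47, slightly above the 40th percentile of each array, and the groups overlapped. Glucagon made a difference of 0.03 (SE 0.09, 95% interval -0.18 to 0.24) and GW4064 one of -0.00 (95% interval -0.21 to 0.21). The highest value, 3.47, was on the GW4064 array of experiment 2. In experiment 1 the GW4064 array was below its DMSO match by 0.07. A signal this low limits what the probe set can show.

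Lpin1 varied more between the experiments than between treatments. Its log2 signal was 7.68 and 6.76 with glucagon+GW4064, 8.11 and 7.21 with glucagon, 7.49 and 5.66 with GW4064, and 7.80 and 6.34 with DMSO, in experiments 2 and 1. The treatments overlapped, whereas each array of experiment 2 (7.49 to 8.11) was above each of experiment 1 (5.66 to 7.21). Esrrg shared this separation at its low level, as did 6.12% of all genes tested. In both pools the signal was highest with glucagon and lowest with GW4064, while DMSO and glucagon+GW4064 changed places between them.

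Glucagon arrays exceeded their Lpin1 match in 4 of 4 pairs, as for 15.4% of all genes, by a mean of 0.61 (SE 0.51, limma adjusted p = 0.634). With the block the SE was 0.17 and the adjusted p 0.0878, and with the block and without the GW4064 array of experiment 2 the difference was 0.80 with an adjusted p of 0.0169. The mean glucagon difference was 0.25 in experiment 2 and 0.98 in experiment 1. The difference of -0.73 between them (SE 0.16) came from a model with a term for each treatment in each experiment, chosen after the pairs were seen, and gave an unadjusted limma p of 0.00466 and an adjusted p of 0.298. The pairs without GW4064, which do not hold the array that stood apart, gave 0.31 in experiment 2 and 0.86 in experiment 1. GW4064 arrays were below their match in 4 of 4 pairs, as for 8.05% of all genes, with a mean difference of -0.47 (SE 0.51, adjusted p = 0.99995; unadjusted p = 0.0280 and adjusted p = 0.987 with the block). The 2 values were -0.37 in experiment 2 and -0.56 in experiment 1. Without the GW4064 array of experiment 2 the GW4064 difference was -0.93, or -0.65 with the block.

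**Figure D2:**
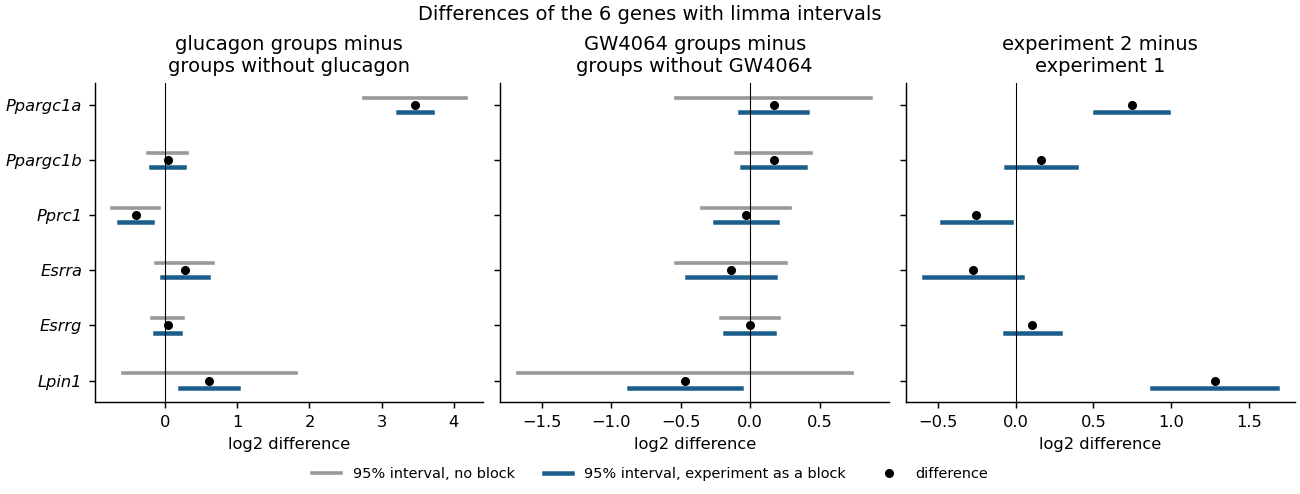
Log2 differences of the 6 genes (points, horizontal axis) between the glucagon groups and those without glucagon, the GW4064 groups and those without GW4064, and experiment 2 and experiment 1, with limma's 95% intervals without the block (thin grey) and with the experiment as a block (thick blue). Ppargc1a stands at 3.46 in the first panel, Lpin1 has the widest interval without the block, and Ppargc1a (0.74) and Lpin1 (1.28) lie to the right of 0 in the last panel.

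The 2 experiments differed in 2 of the 6 members. Experiment 2 was above experiment 1 by 1.28 for Lpin1 (SE 0.17, 2.43-fold, limma adjusted p = 0.0142), the 34th largest such rise among all genes, and by 0.74 for Ppargc1a (SE 0.10, 1.68-fold, adjusted p = 0.0146). In this comparison 2.64% of all genes were higher in experiment 2 and 2.52% lower. For Lpin1 the difference between the experiments was 0.92 with glucagon+GW4064, 0.91 with glucagon, 1.83 with GW4064 and 1.46 with DMSO. For Ppargc1a it was 0.67, 0.50, 0.83 and 0.98 in the same order, so experiment 2 was higher at every treatment. These sizes were not ranked. Both signals without glucagon of experiment 1 lay below the filter level, and the GW4064 value holds the array that stood apart. The other members did not pass: Pprc1 differed by -0.25 (adjusted p = 0.163), Esrra by -0.28 (0.262), Ppargc1b by 0.16 (0.341) and Esrrg by 0.11 (0.419). By treatment, Esrra differed by -0.12 with glucagon+GW4064, 0.06 with glucagon, -0.70 with GW4064 and -0.35 with DMSO. In the same order Ppargc1b differed by 0.03, 0.05, 0.43 and 0.14. The GW4064 values hold the array that stood apart. Without the DMSO arrays of either experiment the adjusted p was 0.0895 for Ppargc1a (0.67) and 0.0918 for Lpin1 (1.22), and without those of the combined treatment it was 0.0694 for Ppargc1a (0.77).

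Markers of liver cell types also differed between the experiments. Of 8 hepatocyte markers, 2 were higher in experiment 2 (Tdo2 by 1.16 and Cyp2e1 by 0.64), and the summed linear signal of the 8 was 26038 to 28903 in experiment 2 and 21578 to 26396 in experiment 1. Of 3 stellate cell markers tested, 2 were higher (Reln 0.84, Dcn 0.67), with a sum over 6 markers of 141 to 148 in experiment 2 and 94.0 to 104 in experiment 1. Of 5 tested markers of sinusoidal endothelium, 2 were lower (Lyve1 -1.02, Fcgr2b -0.46), with a sum over 6 of 160 to 180 in experiment 2 and 266 to 293 in experiment 1. Of 5 tested Kupffer cell and macrophage markers, 2 were higher (Cd68 0.43, Marco 0.38), while Clec4f (-0.07), Vsig4 (0.14) and Adgre1 (0.14) did not pass. The sum over 6 was 1348 to 1870 in experiment 2 and 1141 to 1312 in experiment 1. Linear sums weigh the highest signals most. This one is mostly Cd68, whose group means were 10.2 to 10.5, against 2.97 to 3.30 for Clec4f, Vsig4 and Adgre1. Of 4 markers of other leukocytes, at most 1 was above the filter level on any array. The part of these cell types in the Lpin1 and Ppargc1a differences was not tested.

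With glucagon, 0 of the 17 tested markers of Kupffer cells, endothelium, stellate cells, cholangiocytes and other leukocytes passed limma's test without the block. Of these 17, 1 had an unadjusted p below 0.05. That fit keeps the difference between the pools in its SE, and some of these markers differed between the experiments. Its 0 calls therefore do not show that they were unchanged. The hepatocyte sum was 25218 to 28903 with glucagon and 21578 to 28386 without. In limma without the block 1 of 8 hepatocyte markers rose, Tat (0.83, adjusted p = 0.0465), a glucagon-responsive aminotransferase. Blocked results are not given for these markers. Mean log2 signals of Cps1 were higher with glucagon too: 11.70 with glucagon+GW4064 and 11.85 with glucagon, against 11.34 with GW4064 and 11.28 with DMSO. The cholangiocyte sum over 4 markers was 72.5 to 90.8 with glucagon and 108 to 268 without. Sox9, a transcription factor of these cells, weighed most in this linear sum and differed by -1.32 (limma adjusted p = 0.133). Epcam group means were 3.75 with glucagon+GW4064, 3.68 with glucagon, 3.71 with GW4064 and 3.72 with DMSO. For Krt19 they were 3.15, 3.02, 3.26 and 3.34 in the same order, so the sum mainly follows Sox9. The part of Sox9 or of cholangiocytes in the Ppargc1a rise was not tested.

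**Figure D3:**
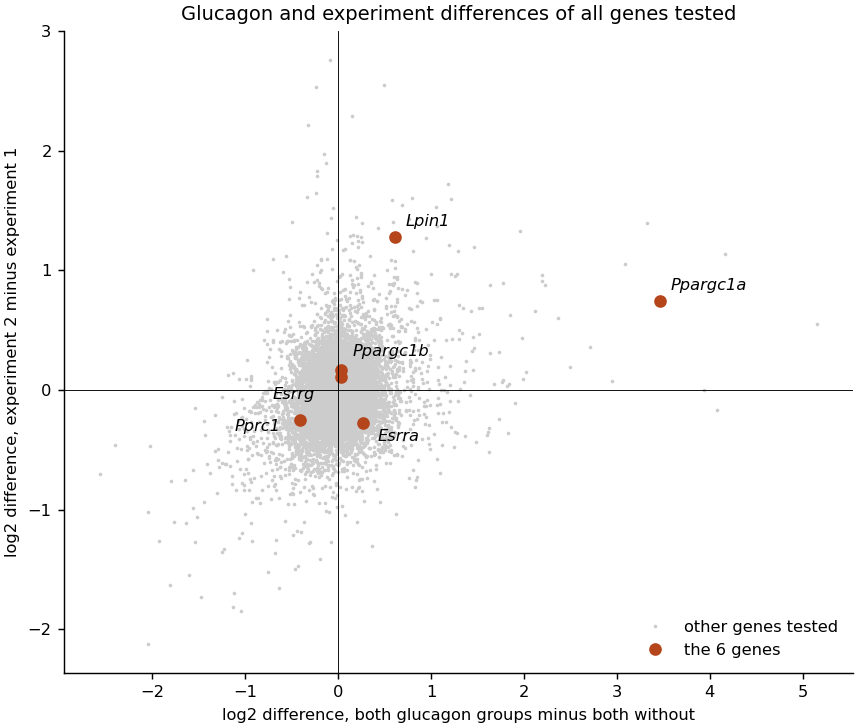
Each of the 13845 tested genes by its log2 difference between the glucagon groups and those without glucagon (horizontal) and between experiment 2 and experiment 1 (vertical); the 6 members are the large points. Ppargc1a lies far to the right at 3.46 and 0.74, Lpin1 at 0.61 and 1.28 is among the highest, Pprc1 is to the lower left at -0.41 and -0.25, and Ppargc1b and Esrrg lie among the bulk of the genes.

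Upstream of Ppargc1a, the cyclic AMP and CREB list held 14 genes, of which 13 were tested. With glucagon 1 rose and 0 fell, beside 0.816% of all genes tested that rose and 0.506% that fell. The median difference was 0.05 beside -0.00 over all genes. The gene that rose was Sik1, a salt-inducible kinase and cyclic AMP target that phosphorylates the CREB coactivators of the CRTC family. Its difference was 1.60 (SE 0.20, limma adjusted p = 0.0187), with 1.71 in experiment 2 and 1.50 in experiment 1. The CREB gene itself, Creb1, differed by -0.20 and the coactivator gene Crtc2 by -0.01, neither past the test. These and the other list genes named below that did not pass, apart from those with the smallest p-values of a list, were chosen after their values were seen.

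Among coregulators and modifying enzymes of PGC-1, 18 of 20 listed genes were tested and 0 passed in either direction, also with the block, with a median of 0.00; 2 had an unadjusted limma p below 0.05. The smallest p-values belonged to Rnf34, a ubiquitin ligase of PGC-1alpha (0.29, adjusted p = 0.281), and Mybbp1a, a repressor that binds PGC-1alpha (-0.21, adjusted p = 0.329). The deacetylase gene Sirt1 differed by -0.03, and the FXR target Nr0b2 (SHP) by -0.02 with glucagon and by 0.34 with GW4064 (adjusted p = 0.99995). The list covers transcripts only and says nothing of the modification of the PGC-1alpha protein. Unadjusted p-values below 0.05 were common over all genes in the pooled glucagon comparison without the block. There Pprc1, at an unadjusted limma p of 0.0188, had rank 1168 by p among the 13845 genes tested. The counts below 0.05 given for the lists and the cell type markers were not tested against all genes.

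Of 16 transcription factor partners, all tested, 0 passed in limma without the block (5 at an unadjusted p below 0.05) and 3 passed with it, with a median of 0.08. With the block 2.67% of all genes tested rose and 3.08% fell, shares that also stand beside the blocked calls of the lists below. Foxa2, a pioneer factor of hepatocytes, differed by 0.62 with glucagon (adjusted p = 0.0659, 0.0293 with the block). Pparg, the adipogenic nuclear receptor through which PGC-1alpha was found, differed by -1.01 (adjusted p = 0.0832, 0.0268 with the block), and Gabpb1, a subunit of the nuclear respiratory factor GABP, was at -0.38 (adjusted p = 0.142, 0.0433 with the block). The FXR gene Nr1h4 differed by -0.56 (adjusted p = 0.146, 0.0675 with the block) and Ppara by 0.33 (adjusted p = 0.531). Ppara group means were 5.70 with glucagon+GW4064, 5.77 with glucagon, 5.12 with GW4064 and 5.70 with DMSO. The low GW4064 mean holds the array that stood apart.

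Among the lists, that of fasting targets of PGC-1alpha held the largest changes. Whether PGC-1alpha took part in them was not tested. Of 16 listed genes 13 were tested, 3 rose and 1 fell, with a median of 0.27. Over all genes tested, 0.816% rose and 0.506% fell. The gluconeogenic genes Pck1 (5.15, limma adjusted p = 0.000571) and G6pc (4.08, adjusted p = 0.000131) and the mitochondrial fatty acid importer Cpt1a (1.83, adjusted p = 0.00612) rose. Angptl4, an inhibitor of lipoprotein lipase, fell by 1.19 (adjusted p = 0.0434), and the peroxisomal enzyme gene Ehhadh passed only with the block (0.57, adjusted p = 0.121, 0.0272 with the block). Pdk4, a kinase that inhibits pyruvate dehydrogenase and a known ERR and PGC-1alpha target, differed by -0.01 (adjusted p = 0.986), and Fbp1 by 0.40 (adjusted p = 0.501).

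The mitochondrial targets of ERR and PGC-1 moved little over these 6 h. Of 22 listed genes 21 were tested, 1 rose and 0 fell, and 17 differences were positive, with a median of 0.15 beside -0.00 over all genes. The gene that rose was Idh3a, the catalytic subunit of the mitochondrial NAD-dependent isocitrate dehydrogenase (0.74, SE 0.10, limma adjusted p = 0.0255), with 0.90 in experiment 2 and 0.58 in experiment 1. The other 2 subunit genes of the enzyme, Idh3b (-0.06) and Idh3g (0.09), did not pass, nor did Cycs, for cytochrome c (0.15), or Acadm, for medium-chain acyl-CoA dehydrogenase (0.16). The Cycs mean was 11.09 with GW4064, a group that holds the array that stood apart, and 11.33 to 11.37 in the other groups. Of 13 mitochondrial DNA and biogenesis factors 0 passed in limma without the block (2 at an unadjusted p below 0.05), 2 differences were positive and the median was -0.11. Polg, the mitochondrial DNA polymerase, was at -0.40 (adjusted p = 0.220, 0.0433 with the block), and Mterf3, a regulator of mitochondrial transcription, at -0.34 (adjusted p = 0.152). Tfam differed by -0.14 and Nrf1 by -0.24, neither past the test.

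Around lipin, 14 of 17 glycerolipid genes were tested and 0 passed in limma without the block (6 at an unadjusted p below 0.05), with a median of 0.02. Dgat2, a diacylglycerol acyltransferase, was at -0.60 (adjusted p = 0.134, 0.0414 with the block), while Dgat1, the other such enzyme, was at 0.37 (adjusted p = 0.176). Of the family relatives, 2 of 4 were tested: Lpin2 differed by 0.74 (adjusted p = 0.425, 0.0906 with the block) and Lpin3 by 0.02. For Lpin2 the glucagon differences were 0.25 in experiment 2 and 1.24 in experiment 1, the pool difference was 0.84 (adjusted p = 0.0708), and the GW4064 difference was 0.02 (adjusted p = 0.99995), beside -0.47 for Lpin1. Of 5 liver genes linked to ERRgamma, 2 rose, both counted above (Pck1 and G6pc), while Hamp (-0.09), Cyp2e1 (-0.02) and Pdk4 did not pass. None of the genes in these lists passed in the pooled GW4064 comparison, with or without the block.

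**Figure D4:**
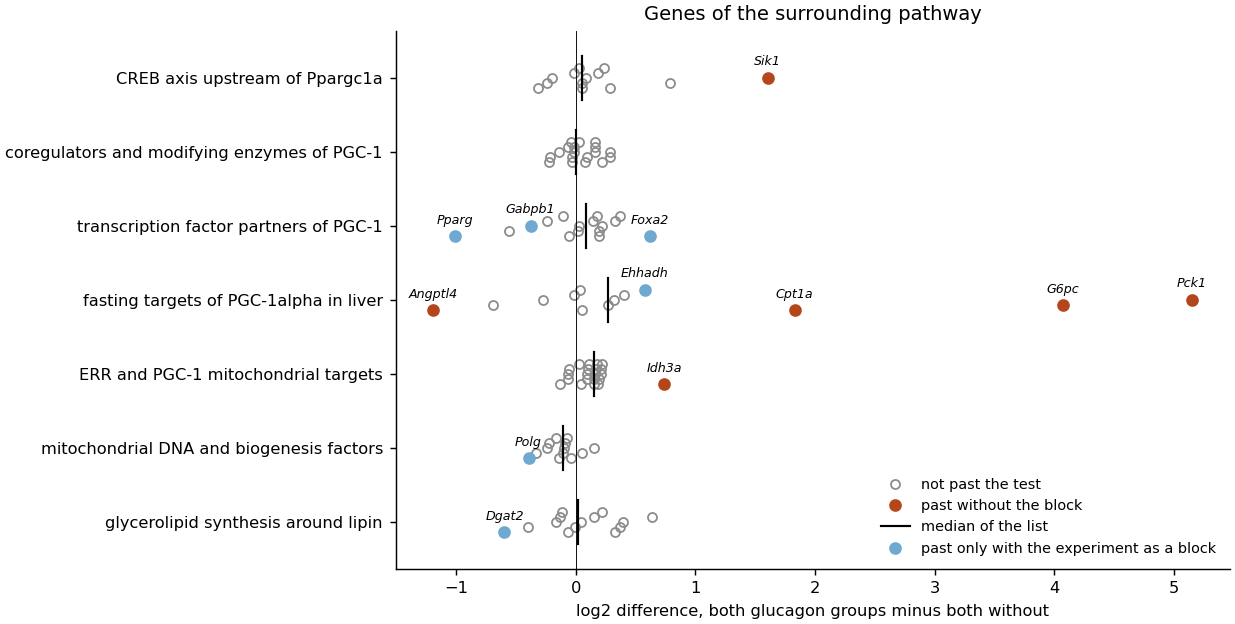
Log2 difference between the glucagon groups and those without glucagon (horizontal) for every tested gene of 7 pathway lists (rows); open points did not pass, red points passed without the block, blue points passed only with the experiment as a block, and the bar is the list's median. Pck1 (5.15), G6pc (4.08), Cpt1a (1.83) and Sik1 (1.60) stand apart to the right, while the mitochondrial targets cluster near their median of 0.15.

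The genes whose pattern over the 8 arrays was most like each member were ranked by Pearson r, as a description: the arrays share 2 cell pools and 4 treatments, so genes that differ by treatment or pool share a pattern. For Ppargc1a they were Aldh4a1 (0.992), a proline catabolism enzyme, Etnppl (0.991), an ethanolamine phosphate lyase, and Tcea3 (0.989). For Pprc1 they were Tln1, Rhbdf2 and Sytl5 (0.991 each). For Lpin1 they were Cyp4v3 (0.989), Cfap20dc (0.983) and Casp6 (0.983). For the receptors they were Csrp1 (0.983), Swi5 (0.979) and Mir5099 (0.979) for Esrra, and Lgals9 (0.985), Hat1 (0.978) and Gopc (0.975) for Esrrg. For Ppargc1b the values were lower, with Gm15327 (0.965), Ifi209 (0.962) and Slc35e3 (0.959).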

How the data were processed

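Each of 8 samples was hybridised to 1 Affymetrix MoGene 2.0 ST array, after 2 technical replicates were pooled and 300 ng of RNA was labelled, per the labels. The deposited values are log2 signals that the authors made with GeneSpring, per the labels. Version and settings: not given in the sources used here. The log2 scale was read from the range of the values.

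Of 41345 probe sets, 23521 have 1 gene symbol in the platform annotation, 1814 several and 16010 none. The first kind was used, and 13845 genes passed the filter on low signals. limma 3.58.1 in R 4.3.3 gave each group 1 mean over 8 arrays (4 residual and 3.06 prior degrees of freedom). P-values are two-sided, with Benjamini-Hochberg adjustment across the tested genes of a comparison, and a gene was called at an adjusted p below 0.05.

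Each experiment divided its own cell pool over the 4 treatments, so its arrays are paired, and deviations from the group means correlated at 0.350 to 0.620 within an experiment. A blocked fit (3 residual degrees of freedom) is printed where it changes a call of a member or pathway list gene or moves a count by over 1.5 times. It is not printed for the cell type markers with glucagon. It served for experiment 2 against experiment 1.

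The 6 members, the gene lists and the motifs were chosen with earlier results of these data known. Named genes are the members, list genes past the test (up to 6 per list) or the 2 with the smallest p, and the 3 genes most like each member by Pearson r; other list genes are named too, chosen after their values were seen. Alternatives were the block, quantile normalization, no filter, only the groups compared, and each array left out. The fit without the block was tested on simulated data that held no difference between the experiments, so that test does not cover the pairing of the arrays. Protein sequences were not used here.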

Additional observations from a re-analysis of the deposited data

Results flagged for a closer look

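For 2 members, the 2 experiments gave a treatment difference of opposite sign in every matched pair. The Ppargc1b difference with glucagon was -0.09 in experiment 2 and 0.16 in experiment 1, so the glucagon effect in experiment 2 minus that in experiment 1 was -0.25 (SE 0.15, limma adjusted p = 0.616). The Pprc1 difference with GW4064 was -0.11 in experiment 2 and 0.05 in experiment 1, and the effect in experiment 2 minus that in experiment 1 was -0.16 (SE 0.14, adjusted p = 0.905). Both tests came from a limma model with treatment-by-experiment terms and 2 residual degrees of freedom, chosen after the data were seen. It called 0 of 13845 genes for either agent, with 1392 genes at an unadjusted p below 0.05 for glucagon and 578 for GW4064. The GW4064 array of experiment 2, which stood apart from the rest, enters both values. In the pairs that do not hold it, the Ppargc1b difference with glucagon was -0.01 in experiment 2 and 0.09 in experiment 1, and the Pprc1 difference with GW4064 was -0.08 in experiment 2 and 0.01 in experiment 1.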

How the results depend on the processing

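With the replicate block, limma called 128 genes for glucagon against DMSO (16 without it), 102 for glucagon+GW4064 against DMSO (17 without it), 147 for glucagon+GW4064 against GW4064 (23 without it) and 797 for the pooled glucagon comparison (183 without it). With the replicate block and without the GW4064 array of experiment 2 these counts were 438, 342, 190 and 1454, and the pooled GW4064 comparison called 3. Fitting only the groups compared gave 9, 9 and 3 genes for the first 3 comparisons. Leaving out 1 array at a time gave 2 to 27, 2 to 24, 2 to 759 and 25 to 702 genes for the same 4 comparisons, 0 to 406 for GW4064 against DMSO (406 without the GW4064 array of experiment 1), and 26 to 728 for experiment 2 against experiment 1.

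Ppargc1a kept its sign in every glucagon comparison under all alternatives run. For glucagon against DMSO its value passed with the replicate block (3.16), also without the GW4064 array of either experiment or either glucagon+GW4064 array (3.16), and with the block and other arrays left out it passed at 3.01 and 3.32 (without a DMSO array) and 3.001 and 3.33 (without a glucagon array). For glucagon+GW4064 against DMSO the call was lost without the filter on low values (3.63) and with only the groups compared (3.63, adjusted p = 0.076). Leaving out 1 array gave 3.14 to 4.12, with the call lost in 6 of 8 cases. For glucagon+GW4064 against GW4064 it was lost with only the groups compared (3.76, adjusted p = 0.142), and leaving out 1 array gave 3.34 to 4.17, with the call lost in 5 of 8 cases. In the pooled glucagon comparison the call was kept in each of the 8 cases. With the replicate block and 1 GW4064 array left out, calls were gained for Pprc1 (-0.49 without that of experiment 2, -0.33 without that of experiment 1), Lpin1 (0.80 without that of experiment 2) and Esrra (0.41 without that of experiment 1, and 0.76 in glucagon+GW4064 against GW4064). Between the experiments, leaving out 1 array gave 0.67 to 0.83 for Ppargc1a and 1.10 to 1.40 for Lpin1, with the calls lost in 4 and 2 of 8 cases. For experiment 2 against experiment 1, leaving out either array of a treatment gives the same fit, so the 8 cases are 4 fits. The causes of the lost and gained calls were not tested. A fit with fewer arrays has fewer residual degrees of freedom. The fits with the block and each array left out were chosen after the data were seen. After quantile normalization, which shifted array medians by -0.04 to 0.07, no member changed its call, and the signs that turned belonged to differences of up to 0.06 in size (Pprc1 for GW4064 against DMSO, and the interaction of Ppargc1b and Lpin1).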
